A study of Rattus norvegicus with 30 samples.

Results

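The comparison described here is between female rats that reacted strongly and female rats that reacted little to the same predator scent. Hippocampal RNA of 5 female extreme responders was set against that of 5 female minimal responders, which are 10 of the 30 samples of the series, chosen by their group label and by a rat number that starts with F. All were adult Sprague Dawley rats, an outbred strain, with 1 rat on each Illumina expression array. Both groups had been exposed to predator-scent stress and were labelled by their behavioural response to it, so the exposure is shared and the labels separate them by behaviour. The arrays of the groups also differ in ways that the labels do not give, described below. The 5 female controls were tested in the same way without exposure, and 5 male controls, 4 male minimal responders with values and 5 male extreme responders complete the series. The labels give neither the scent, nor the behavioural scores, nor the time between exposure and dissection, so a rat's group is known here from its label alone. The question is which hippocampal transcripts differ between exposed females of unlike behaviour.

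Stress releases glucocorticoids, which enter cells of the hippocampus, bind the receptors encoded by *Nr3c1* and *Nr3c2* and switch on a set of target genes. Several of these targets, among them *Per1*, also belong to the circadian clock, in which period and cryptochrome proteins inhibit their own transcription and the factors *Dbp* and *Nfil3* act in opposite directions on one DNA element, the D-box. The same tissue holds neurons, glia and blood vessels, and the array reads their RNA together. Fewer cells of one type and less RNA per cell of that type therefore cannot be told apart in any result below.

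Values are array intensities on a log2 scale, and a difference is the mean of the extreme minus the mean of the minimal responders on that scale, ± its standard error. A probe passed when its limma p, adjusted by Benjamini-Hochberg over all 11888 probes tested, was under 0.05. The median correlation of an array with the others ranged from 0.977 to 0.988 over the 10 rats. No pair within a group was a copy, since the highest correlation of a pair was 0.993 and the smallest median difference between the arrays of a pair was 0.105. Of the defining markers of hippocampal tissue, the background filter kept 8 of 8 genes of pyramidal cells, 7 of 8 of interneurons and 4 of 5 of astrocytes. It kept only 2 of 6 of dentate granule cells. *Slc32a1*, *Aldh1l1* and *Dsp* had no probe under these names. The pyramidal gene *Grik4* had a median of 6.98 in the 10 rats, below the background floor of 7.03. The filter also kept 4 of 4 markers of the striatum.

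Some divisions of the arrays, none of them given in the labels, bear on the comparison. A first division, into a set A of 12 arrays and a set B of 17, rests on 8 probes, among them the ribosomal protein genes *Rpl37l1*, *Rpl7* and *Rpl23*. *Rpl37l1* stood at 12.59, 9.49, 12.18, 10.13 and 12.36 in the minimal responders and at 9.34, 9.35, 9.62, 9.72 and 9.49 in the extreme responders. Minimal responders 1, 3 and 5 were therefore in set A, and all extreme responders in set B.

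A second division follows the choroid plexus, a tissue that lies in the ventricle beside the hippocampus. *Sostdc1*, a secreted BMP antagonist of the choroid plexus, stood at 6.75, 7.79, 12.41, 6.88 and 8.82 in minimal and at 9.44, 6.62, 6.80, 7.40 and 11.65 in extreme responders. The same 4 arrays of the 29, minimal responder 3 and extreme responder 5 among them, were set apart by 27 of 45 probes. Each of the 45 had a gap of 0.8 or more with at least 4 arrays on each side. *Ttr*, which encodes the thyroxine carrier transthyretin, ran from 8.22 to 14.50 in minimal and from 7.55 to 14.88 in extreme responders, so both groups held rats with and without this RNA. Thirdly, the mean level of 5 thalamus and habenula markers was 8.30, 8.15, 8.04, 8.70 and 7.88 in minimal and 8.07, 8.06, 8.06, 9.77 and 9.57 in extreme responders. Extreme responders 4 and 5 lay above the other 8 rats, and both were also highest in 9 markers of the meninges (10.11 and 10.09, against at most 9.89).

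**Figure D1:**
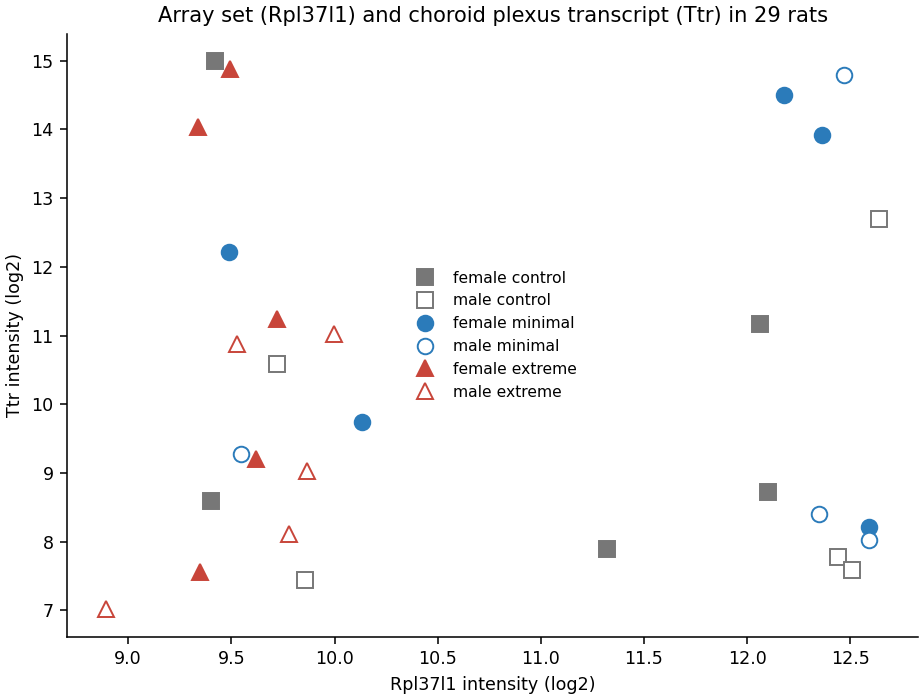
Intensity of *Ttr* (log2, vertical axis) against *Rpl37l1* (log2, horizontal axis) in the 29 rats with values, 1 symbol for each rat, filled for females and open for males. The 5 female extreme responders lie at the left, with *Rpl37l1* at 9.72 or below, and in both female groups *Ttr* spreads over more than 6 log2 units.

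Of 11888 probes tested, 450 passed between extreme and minimal females (3.79%), 162 higher (1.36%) and 288 lower (2.42%) in extreme responders. With the set A and B division as a block in the fit, 388 passed (3.26%), 166 higher (1.4%) and 222 lower (1.87%). In both fits 226 passed (1.9%), 87 higher (0.732%) and 139 lower (1.17%). The 226 probes carried 179 genes with a symbol, 64 higher and 115 lower, and 47 probes without one. Their median size was 0.41, against 0.10 over all probes. Values of the 2 groups did not overlap for 202 of the 226. Over all probes 6.67% did not overlap, 2.59% with every extreme responder above and 4.08% with every one below. The 226 were chosen by the same contrast, so nothing is read from their size or their separation. Within set B, where 2 minimal and 5 extreme responders remained, 0 probes passed with limma (1386 at an unadjusted p under 0.05). All 450 probes kept their direction there, but the 5 extreme and 2 minimal rats are the same ones, so this is no independent check. Without the 4 choroid plexus arrays 186 passed, and 142 of these were among the 226. Choroid plexus RNA remained in that fit, since extreme responder 1 (*Ttr* at 14.04) and minimal responder 5 (13.91) were kept. Without extreme responders 4 and 5 the count was 165, of which 116 were among the 226.

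**Figure D2:**
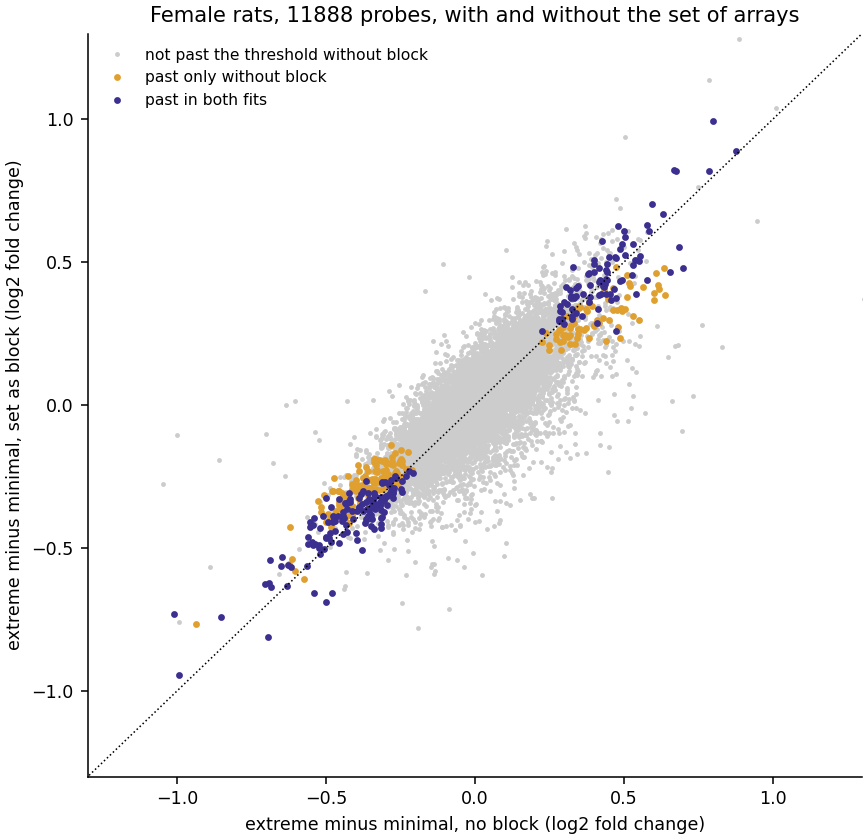
Log2 fold change of extreme minus minimal females without a block (horizontal axis) and with the set of arrays as a block (vertical axis), 1 point for each of 11888 probes; 9 probes fall outside the axes. The 226 probes past the threshold in both fits lie close to the dotted line of equal values, and the 224 that passed only without the block all kept their sign in the blocked fit.

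Of 20 measured genes known to be switched on by glucocorticoids, 7 passed as higher in extreme responders and 0 as lower, against 1.36% and 2.42% of all probes. The same shares are the background for every list count below. By their means 16 were higher and 4 lower. *Sgk1*, a kinase and a classical glucocorticoid target, was measured at 11.51, 12.22, 12.07, 11.97 and 11.76 in minimal and at 13.08, 12.75, 12.52, 12.70 and 12.87 in extreme responders. The groups did not overlap, and the difference of 0.88 ± 0.19 was the largest rise among named genes that passed in both fits (adjusted p = 0.00822). *Errfi1*, which restrains signalling by the EGF receptor, went from 9.14, 9.39, 9.31, 9.24 and 9.49 to 10.00, 9.86, 9.69, 10.13 and 9.86 (0.60 ± 0.10, adjusted p = 0.0019). *Tob2*, which restrains cell proliferation, went from 9.18, 9.32, 9.36, 9.40 and 9.20 to 9.89, 10.01, 10.02, 9.88 and 10.07 (0.69 ± 0.13, 0.00357). For both genes every extreme responder lay above every minimal responder. *Ddit4*, an inhibitor of the mTOR pathway, also separated the groups, with 10.23 to 10.58 in minimal and 10.88 to 11.07 in extreme responders (0.60 ± 0.15, 0.0251). Its call ended with the set as a block (0.39, 0.117).

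The 7 that rose were *Sgk1*, *Tob2*, *Nfil3*, *Errfi1*, *Ddit4*, *Per1* and *Gadd45g*, and the median difference of the list was 0.27, against 0.00 over all probes. *Tob2*, *Nfil3* and *Gadd45g* (0.28 ± 0.08) were placed on this list when their values were known. Without them 4 of 17 genes passed, with a median of 0.23. With the set as a block *Gadd45g* did not pass (0.26, 0.0976), and *Nfkbia* (0.72, 0.0104) and *Plekhf1* (0.42, 0.0477) did. The mean level of the 20 genes ran from 9.23 to 9.44 in minimal and from 9.55 to 9.71 in extreme responders. Other members did not pass. *Dusp1*, a phosphatase that ends MAP kinase signals, differed by 0.79 ± 0.35 (adjusted p = 0.221), *Nfkbia* by 0.47 ± 0.17 (0.124), *Tsc22d3* by 0.07 ± 0.10 (0.786) and *Klf9* by 0.08 ± 0.13 (0.801). *Fkbp5*, a chaperone of the glucocorticoid receptor and itself a target, was lower without passing (−0.31 ± 0.13, 0.201), at 10.33, 10.33, 10.60, 10.45 and 10.61 in minimal and 10.30, 9.99, 10.27, 10.10 and 10.11 in extreme responders. The difference had opposite signs in these 2 targets, *Sgk1* and *Fkbp5*, while the receptor genes *Nr3c1* (0.13 ± 0.09) and *Nr3c2* (0.21 ± 0.13) overlapped between the groups, and *Nr3c1* was above the floor of 7.03 in only 2 minimal and 3 extreme responders. The list of 7 corticosteroid receptors and cofactors had 0 past the threshold with limma (1 at an unadjusted p under 0.05).

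Further genes rose outside that list. *Tmem252*, a membrane protein, stood at 6.85, 6.79, 6.87, 6.90 and 6.83 in minimal responders and at 7.40, 7.39, 7.37, 7.71 and 7.52 in extreme responders (adjusted p = 8.04e-05). All 5 minimal responders lay below the same background floor and all 5 extreme responders above it. The probe was thus kept through the group in which it is high, and nothing is read from its adjusted p. The rise can be given as at least 1.37-fold, the extreme mean against the floor. *Klf2*, a transcription factor of endothelium and immune cells, was the only one of 20 immediate early genes to pass (0.47 ± 0.10, 0.00784), and the list's median was 0.13. Outside these 20 genes *Zfp36*, which destabilises inflammatory mRNAs (0.47 ± 0.11), and *Apold1*, an endothelial early response gene (0.49 ± 0.10), rose as well. The count of early genes therefore depends on which genes the list holds. The activity-induced genes *Fos* (0.48 ± 0.22), *Arc* (0.43 ± 0.24) and *Junb* (0.43 ± 0.21) had higher means and did not pass. *Arc* ran from 8.82 to 9.77 in minimal and from 9.36 to 9.86 in extreme responders, and its control rats lay at 8.57, 8.43, 8.57, 8.42 and 8.46, below all 10 exposed rats. *Klf2*, *Zfp36* and *Apold1* were at 0.33, 0.33 and 0.36 without extreme responders 4 and 5 and did not pass (adjusted p = 0.109, 0.148 and 0.0963).

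**Figure D3:**
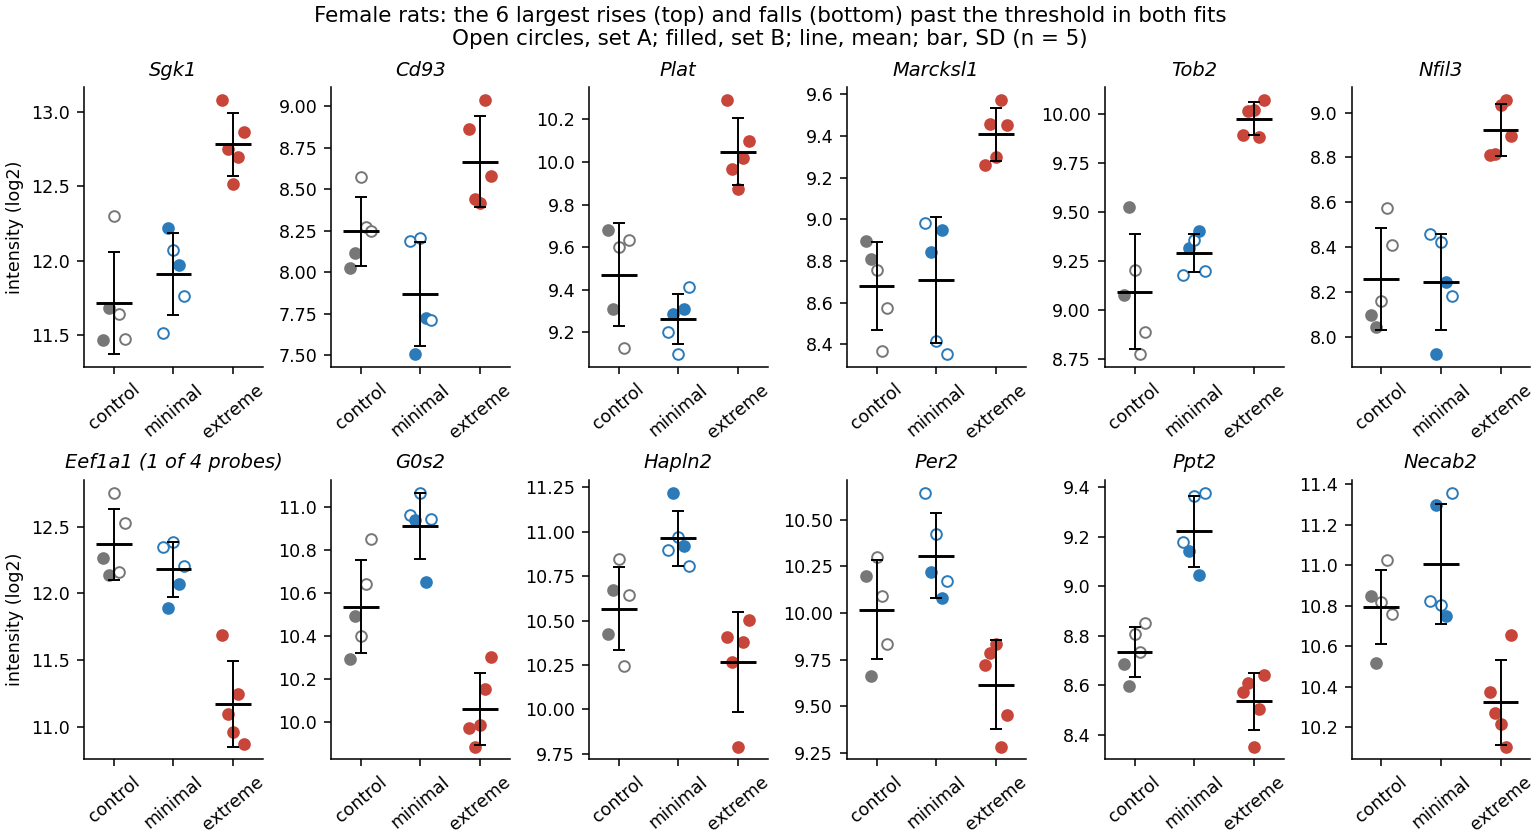
Log2 intensity of the 6 genes with the largest rises (top row) and falls (bottom row) among named genes past the threshold in both fits, in 5 control, 5 minimal and 5 extreme females. Each circle is a rat (open, set A; filled, set B), the thick line is the mean and the bar the SD; in each panel the extreme responders lie on one side of all minimal responders.

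The clock genes moved apart from one another. *Per1* was higher, at 9.43, 9.01, 9.43, 9.01 and 9.08 in minimal and 9.67, 9.76, 9.66, 9.65 and 9.59 in extreme responders (0.47 ± 0.11, adjusted p = 0.0114). *Per2*, its paralogue, was lower, at 10.65, 10.22, 10.43, 10.08 and 10.17 against 9.72, 9.79, 9.83, 9.28 and 9.46 (−0.69 ± 0.15, 0.00952). For both genes the groups were fully separate, in opposite directions in the same rats. *Nfil3*, the repressor at D-boxes, was higher, at 8.46, 7.92, 8.42, 8.25 and 8.18 against 8.81, 8.82, 9.03, 9.06 and 8.89 (0.68 ± 0.13, 0.00357). *Dbp*, the activator at D-boxes, was lower by a small amount (−0.28 ± 0.07, 0.03), with 7.42 to 7.83 against 7.21 to 7.42. *Cry1*, a cryptochrome, fell (−0.53 ± 0.14, 0.0284), from 9.66, 9.08, 9.39, 9.18 and 8.97 to 8.73, 8.62, 8.67, 8.87 and 8.75. With the set as a block, *Per1* (0.52), *Per2* (−0.62) and *Nfil3* (0.82) still passed, while *Dbp* (−0.26, 0.0727) and *Cry1* (−0.34, 0.133) did not. *Per2* did not pass without extreme responders 4 and 5 (−0.53, 0.107). Of 12 clock genes measured 2 rose and 3 fell, against 1.36% and 2.42% of all probes. The other 7, such as *Bmal1* (0.22 ± 0.09), *Per3* (−0.12 ± 0.07), *Cry2* (0.21 ± 0.08) and *Nr1d1* (0.21 ± 0.13), did not pass. The list's median was 0.13, and −0.05 with the block.

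The promoters of *Per1*, *Per2*, *Nfil3* and *Dbp* are shown because their transcripts moved in opposite directions and because *Nfil3* and *Dbp* share a binding element. Each is the 250 bases before the annotated start of transcription, 5′ to 3′ on the gene's strand, from RefSeq on the GRCr8 build. Capitals mark the D-box letters TTATGTAA, searched on both strands.
Per1 promoter, chr10:54304126-54304375, plus strand: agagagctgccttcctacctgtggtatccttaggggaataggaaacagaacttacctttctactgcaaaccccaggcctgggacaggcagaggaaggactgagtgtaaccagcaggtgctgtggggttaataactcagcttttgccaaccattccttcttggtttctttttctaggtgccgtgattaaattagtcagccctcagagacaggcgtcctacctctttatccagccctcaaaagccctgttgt
Per2 promoter, chr9:99496994-99497243, minus strand: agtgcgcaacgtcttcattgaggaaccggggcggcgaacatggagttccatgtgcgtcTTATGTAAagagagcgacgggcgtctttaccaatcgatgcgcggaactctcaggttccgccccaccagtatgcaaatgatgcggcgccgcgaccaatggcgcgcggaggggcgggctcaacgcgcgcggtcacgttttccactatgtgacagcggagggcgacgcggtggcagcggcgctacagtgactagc
Nfil3 promoter, chr17:12432126-12432375, plus strand: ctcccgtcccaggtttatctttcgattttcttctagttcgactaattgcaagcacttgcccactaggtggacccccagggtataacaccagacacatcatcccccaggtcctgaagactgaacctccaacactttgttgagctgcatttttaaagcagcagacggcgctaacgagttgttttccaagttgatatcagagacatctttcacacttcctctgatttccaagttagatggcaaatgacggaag
Dbp promoter, chr1:105312006-105312255, plus strand: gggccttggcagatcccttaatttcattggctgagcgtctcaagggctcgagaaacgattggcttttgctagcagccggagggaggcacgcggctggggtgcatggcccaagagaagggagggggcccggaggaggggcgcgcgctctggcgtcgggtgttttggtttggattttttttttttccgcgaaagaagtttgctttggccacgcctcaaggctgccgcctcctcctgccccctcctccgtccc

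Among these 4 windows the D-box letters were found only in that of *Per2*, 192 bases before the start. They occur in 0.816% of 27457 rat promoters of this length and in 0.388% of the 6966 promoters of tested genes. In the 50 promoters matched to the 64 genes higher in both fits the D-box was found 0 times, and in the 98 matched to the 115 lower genes once, in *Per2*. The palindrome bound by the glucocorticoid receptor, searched on both strands, occurs in 0.364% of all promoters and in 0 of the 50 and 0 of the 98. The E-box CACGTG, bound by the clock activators, occurred in 8% of the promoters of higher and 5.1% of those of lower genes, against 8.2% of tested genes. These are matches of letters in a short window and say nothing about binding.

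Of 13 endothelial markers 3 rose and 1 fell in extreme responders, against 1.36% and 2.42% of all probes. *Cd93*, a receptor on endothelial cells, went from 8.19, 7.51, 8.20, 7.72 and 7.71 to 8.86, 8.44, 8.42, 9.04 and 8.58 (0.80 ± 0.15, adjusted p = 0.00257). *Plat*, the tissue plasminogen activator that cleaves plasminogen and acts in vessels and at synapses, went from 9.20, 9.29, 9.10, 9.31 and 9.41 to 10.29, 9.97, 9.87, 10.02 and 10.10 (0.79 ± 0.11, 0.000144). The groups did not overlap for either gene. *Tie1*, an endothelial receptor tyrosine kinase, rose on 1 of its 2 probes (0.40 ± 0.09, 0.0148) and not on the other (0.19 ± 0.07, 0.14), and its call ended without extreme responders 4 and 5 (0.27, 0.165). *Ece1*, the enzyme that makes endothelin, fell from 7.84 to 8.42 in minimal to 7.49 to 7.77 in extreme responders (−0.52 ± 0.11, 0.006). The list had a median of 0.16, and *Cldn5* (0.16 ± 0.12) and *Vwf* (0.26 ± 0.15) did not pass. The mean level of the list ran from 8.08 to 8.30 in minimal and from 8.29 to 8.56 in extreme responders, highest in extreme responder 4. None of 8 markers of pericytes and smooth muscle passed with limma (1 at an unadjusted p under 0.05).

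Oligodendrocyte genes also went both ways. *Olig1*, a transcription factor of the lineage, was at 12.23, 12.14, 12.14, 12.16 and 11.83 in minimal and at 12.79, 12.50, 12.35, 12.83 and 12.78 in extreme responders (0.55 ± 0.12, adjusted p = 0.00807). *Hapln2*, which anchors the matrix at nodes of Ranvier, was at 10.90, 11.22, 10.97, 10.92 and 10.80 against 10.41, 10.27, 9.79, 10.38 and 10.50 (−0.69 ± 0.15, 0.00816). Both pairs of groups were separate. The myelin enzyme *Cnp* rose without the block alone (0.52 ± 0.15, 0.0434; blocked 0.43, 0.13), and *Bcas1*, of early myelinating cells, did likewise (0.57 ± 0.15, 0.0346; blocked 0.41, 0.137). Of 19 oligodendrocyte and myelin markers 2 rose and 1 fell (median 0.17), and *Mbp* (0.26 ± 0.31), *Mog* (0.21 ± 0.19) and *Mobp* (0.35 ± 0.18) did not pass. In the list of 7 oligodendrocyte precursor markers *Olig1* was the 1 that passed. *Olig1* did not pass without extreme responders 4 and 5 (0.45, 0.0885).

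Few markers of other glia and of progenitors passed. Of 13 astrocyte markers only *Ndrg2*, a growth-related protein of astrocytes, passed, and it fell from 14.29, 14.05, 14.07, 14.43 and 14.27 to 13.77, 13.77, 13.65, 13.75 and 13.71 (−0.49 ± 0.10, adjusted p = 0.00784). Its groups did not overlap. Of 14 markers of progenitors and immature neurons *Marcksl1*, an actin regulator, rose from 8.98, 8.84, 8.41, 8.95 and 8.35 to 9.26, 9.46, 9.30, 9.57 and 9.45 (0.70 ± 0.14, 0.00412). It was the 1 that passed, but by their means 12 of the 14 were higher and 2 lower (median 0.14). The list's mean level ran from 8.51 to 8.68 in minimal and from 8.69 to 8.88 in extreme responders. Microglial markers gave 0 of 13 past the threshold with limma (1 unadjusted) and a median of 0.02.

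The other genes among the 25 largest rises belonged to no single list. *Phf1*, a chromatin reader of the Polycomb system, rose by 0.66 ± 0.12 (adjusted p = 0.0025). *Adgrb2*, an adhesion receptor of neurons, rose by 0.59 ± 0.14 (0.0204), and minimal responder 5, at 11.12, lay among the extreme responders (11.02 to 11.71) while the other 4 were at 10.59 to 10.63. *Aplp1*, of the amyloid precursor family, went from 11.94 to 12.35 in minimal to 12.58 to 12.75 in extreme responders (0.58 ± 0.12, 0.0067). *Slc16a1*, the monocarboxylate transporter that carries lactate (0.56 ± 0.10), *Pfn2*, a neuronal profilin (0.54 ± 0.12), *Sat1*, of polyamine breakdown (0.50 ± 0.12), and *Pgrmc1*, a haem-binding membrane protein (0.50 ± 0.12), rose too. *Nptn*, a synaptic adhesion molecule (0.48 ± 0.13), *S100a16*, a calcium-binding protein (0.49 ± 0.10), *C1ql1*, a synaptic organiser (0.46 ± 0.09), and *Tm9sf4* (0.49 ± 0.14) were the others. *Tm9sf4* passed in 1 of 10 fits that each left out 1 exposed female and *Nptn* in 3. *Lpcat3*, of phospholipid remodelling, rose on 1 probe (0.48 ± 0.11, 0.0131), while its other probe had 0.24 ± 0.07 (0.0675).

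Among receptors and channels, single members passed. *Grin2c*, an NMDA receptor subunit, rose from 8.48, 8.53, 8.32, 8.44 and 8.62 to 8.81, 8.99, 8.89, 8.87 and 9.05 (0.44 ± 0.08, adjusted p = 0.00291), with no overlap. It was 1 of 20 glutamate receptor genes to pass (median 0.11). *Cacnb2*, a subunit of voltage-gated calcium channels, rose by 0.30 ± 0.06 (0.00822), 1 of 21 calcium and sodium channel genes. Of 28 postsynaptic genes *Adgrb2* rose and *Nrgn*, a calmodulin-binding protein of dendritic spines, fell (−0.38 ± 0.10, 0.0337; blocked −0.31, 0.111). *Cort*, the peptide cortistatin of interneurons, fell from 8.54, 8.45, 8.31, 8.11 and 8.22 to 7.76, 7.82, 8.00, 7.59 and 7.57 (−0.58 ± 0.16, 0.0456; blocked −0.61, 0.059). It was the 1 of 14 interneuron markers to pass.

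Falls outnumbered rises, and 3 of 35 genes of peroxisomes and fatty acid oxidation were among them, against 2.42% of all probes. *G0s2*, an inhibitor of the main triglyceride lipase, was at 10.97, 10.94, 11.06, 10.65 and 10.95 in minimal and at 9.97, 9.89, 9.99, 10.15 and 10.30 in extreme responders (−0.85 ± 0.13, adjusted p = 0.000352). *Acaa1a*, the thiolase of peroxisomal fatty acid oxidation, was at 10.78, 10.50, 10.88, 10.69 and 10.75 against 10.03, 10.11, 9.99, 10.20 and 10.02 (−0.65 ± 0.10, 0.000674). Neither gene had overlapping groups. In the same list 1 gene, *Acadvl* (0.29 ± 0.08), rose, and the median was 0.06. The third to fall was *Hadha*, of mitochondrial fatty acid oxidation (−0.35 ± 0.10, 0.0456; blocked −0.26, 0.158), and *Eci2* passed as higher with the block (0.41, 0.0472).

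*Rab24*, a small GTPase linked to autophagy, had the smallest adjusted p of the genes that fell most. It was at 11.67, 11.58, 11.48, 11.69 and 11.79 in minimal and at 10.88, 10.97, 11.10, 11.07 and 11.02 in extreme responders (−0.63 ± 0.08, adjusted p = 7.27e-05), and the control rats, at 11.16 to 11.47, lay between them. Of 34 Rab GTPases 0 rose and 3 fell, against 1.36% and 2.42% of all probes. Beside *Rab24* these were *Rab4b* (−0.29 ± 0.07) and *Rab5c* (−0.29 ± 0.08), both of early endosomes. *Rab4b* was above the floor in only 1 extreme responder and did not pass with the block (−0.25, 0.0623). Of the 34 genes 25 had a lower mean (median −0.10). *Unc119*, a carrier of lipid-modified proteins, fell by 0.65 ± 0.13 on the log2 scale. *Necab2*, a calcium-binding protein of neurons, went from 10.75 to 11.36 in minimal to 10.10 to 10.65 in extreme responders (−0.68 ± 0.17, 0.0189).

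Lysosomal genes were split. *Ppt2*, a lysosomal thioesterase, was at 9.18, 9.14, 9.36, 9.05 and 9.38 against 8.57, 8.61, 8.35, 8.50 and 8.64 (−0.69 ± 0.09, adjusted p = 8.04e-05). *Arsa*, the sulphatase that degrades sulphatide, rose from 6.75 to 7.10 in minimal to 7.36 to 7.57 in extreme responders (0.44 ± 0.08, 0.0025), and 3 of the 5 minimal responders were above the floor. The calcium channel *Mcoln1* fell (−0.37 ± 0.09, 0.0225) and the peptidase *Tpp1* rose (0.35 ± 0.10, 0.0398), both without the block alone. So 2 of 28 lysosomal genes rose and 2 fell (median 0.05), against 1.36% and 2.42% of all probes. Of 17 cholesterol synthesis genes 3 passed as higher and 0 as lower, against the same shares of all probes. These were *Dhcr7* (0.44 ± 0.08, 0.00392), *Sqle* (0.34 ± 0.08, 0.0147) and *Msmo1* (0.43 ± 0.11, 0.0284), enzymes of the pathway that runs through squalene to cholesterol, and *Msmo1* did not pass with the block (0.30, 0.119). The list's mean level ran from 8.89 to 9.03 in minimal and from 9.12 to 9.20 in extreme responders, and 15 of 17 genes had a higher mean (median 0.12).

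The remaining genes among the 25 largest falls are given next. *Rbl2*, a relative of the retinoblastoma protein (−0.56 ± 0.09), *Banp*, a nuclear DNA-binding protein (−0.63 ± 0.09), *Ssbp4* (−0.55 ± 0.07), and *Atf5*, a stress-induced factor (−0.56 ± 0.11), were lower. *Ssbp4* was at 8.38, 8.44, 8.43, 8.33 and 8.42 in minimal and 7.89, 7.73, 7.82, 7.89 and 7.94 in extreme responders, with no overlap. The RNA factors *U2af1l4* (−0.54 ± 0.08) and *Exosc5*, of the exosome (−0.54 ± 0.10), fell too. *Pde4a*, a phosphodiesterase that degrades cyclic AMP, fell from 8.66 to 8.96 in minimal to 8.21 to 8.35 in extreme responders (−0.54 ± 0.12, adjusted p = 0.0108), and with *Pde3b* (−0.26 ± 0.08) it made up the 2 of 28 cyclic nucleotide genes that fell while 0 rose (median 0.01). *Pde3b* did not pass with the block (−0.27, 0.0665). *Irf1* (−0.54 ± 0.10, 0.00406) and *Irf3* (−0.51 ± 0.10, 0.006), factors of the interferon response, were the 2 of 16 interferon and inflammation genes that passed. Also lower were *Fkbpl* (−0.55 ± 0.09), *St3gal4*, a sialyltransferase (−0.55 ± 0.10), *Abhd8* (−0.54 ± 0.11), *Hddc3* (−0.52 ± 0.12) and *Eif4e3*, a cap-binding factor (−0.52 ± 0.13). *Klhdc4* fell on 1 probe (−0.62 ± 0.08, 8.04e-05) and differed by −0.03 ± 0.09 on the other.

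Machinery of protein synthesis, folding and breakdown held several smaller falls. Of 57 cytoplasmic ribosomal protein genes 0 rose and 6 fell (*Rpl7a*, *Rpl18*, *Rpl19*, *Rpl31*, *Rpsa* and *Rps10*), against 1.36% and 2.42% of all probes. Of the 57 genes 41 had a lower mean, and the median was −0.18. *Rpl31* was at 9.15, 8.88, 8.78, 9.05 and 8.72 in minimal and 8.31, 8.43, 8.62, 8.54 and 8.64 in extreme responders (−0.41 ± 0.08, adjusted p = 0.00425), and *Rpsa* at 13.91 to 14.24 against 13.66 to 13.78 (−0.38 ± 0.08, 0.00821). These 2 also passed with the block, the other 4 did not, and *Rps2* (−0.47) and *Rps24* (−0.33) did. The median with the block was −0.10. Some ribosomal probes are among those that define the sets, and their part in this shift was not tested. The mean level of the list was 12.32 to 12.51 in minimal and 12.17 to 12.26 in extreme responders. The elongation factor *Eef1a1* fell on 1 probe (−1.01 ± 0.22, 0.00816), while its other 3 probes had 0.08, 0.16 and 0.26 and did not pass, so the gene as a whole has no settled direction.

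Translation factors gave 2 rises in 30 genes, *Eef2* (0.27 ± 0.07, adjusted p = 0.0361) and *Eif4h* (0.42 ± 0.08, 0.0025). With the block *Eef2* did not pass (0.23, 0.106) and *Eif3h* passed as lower (−0.34, 0.0136). Of 42 genes of the proteasome and ubiquitin conjugation 5 fell and 0 rose, against 2.42% and 1.36% of all probes. The 5 were *Psmc3* (−0.46 ± 0.10), *Psmd3* (−0.44 ± 0.09), *Psmd11* (−0.44 ± 0.09), *Psmb1* (−0.37 ± 0.09) and *Psma7* (−0.28 ± 0.07), all subunits of the proteasome. With the block *Psmb1* did not pass (−0.29, 0.0906), while *Psmb4* passed as lower (−0.38, 0.00468) and *Psmc6* as higher (0.50, 0.021). *Psmd3* lay between 12.30 and 12.54 in minimal and between 11.90 and 12.06 in extreme responders. In heat shock and the unfolded protein response 3 of 21 genes fell and 1 rose, against the same shares of all probes. *Dnajb1*, a chaperone (−0.37 ± 0.07, 0.00579), fell in both fits, *Xbp1* (−0.40 ± 0.10, blocked adjusted p = 0.129) and *Ddit3* (−0.45 ± 0.12, blocked 0.101) only without the block, and *Pdia3*, a disulphide isomerase (0.33 ± 0.09, 0.04), rose.

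Of 55 oxidative phosphorylation genes 2 passed, *Ndufa8* (−0.51 ± 0.09, adjusted p = 0.0021) and *Ndufv2* (−0.30 ± 0.06, 0.00667), both of respiratory complex I, and the list's median was 0.01. Of 53 mitochondrial ribosomal genes 2 passed, *Mrpl49* (−0.39 ± 0.06, 0.000912) and *Mrpl16* (−0.30 ± 0.08, 0.0301), with a median of −0.05. Both shares are near the 3.79% called over all probes. With the block *Mrpl16* did not pass (0.139) and *Mrpl17* passed as higher (0.37, 0.0265). In secreted factors *Ccn2*, a matricellular protein, fell most, from 11.47, 10.97, 11.00, 11.13 and 11.24 to 9.98, 9.93, 10.26, 10.78 and 10.16 (−0.94 ± 0.23, 0.019). It was the 1 of 24 neurotrophins and growth factors to pass, its groups did not overlap, and its call ended with the block (−0.77, 0.0695). *Bdnf*, the main activity-dependent neurotrophin, differed by 0.11 ± 0.11 with overlapping groups.

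**Figure D4:**
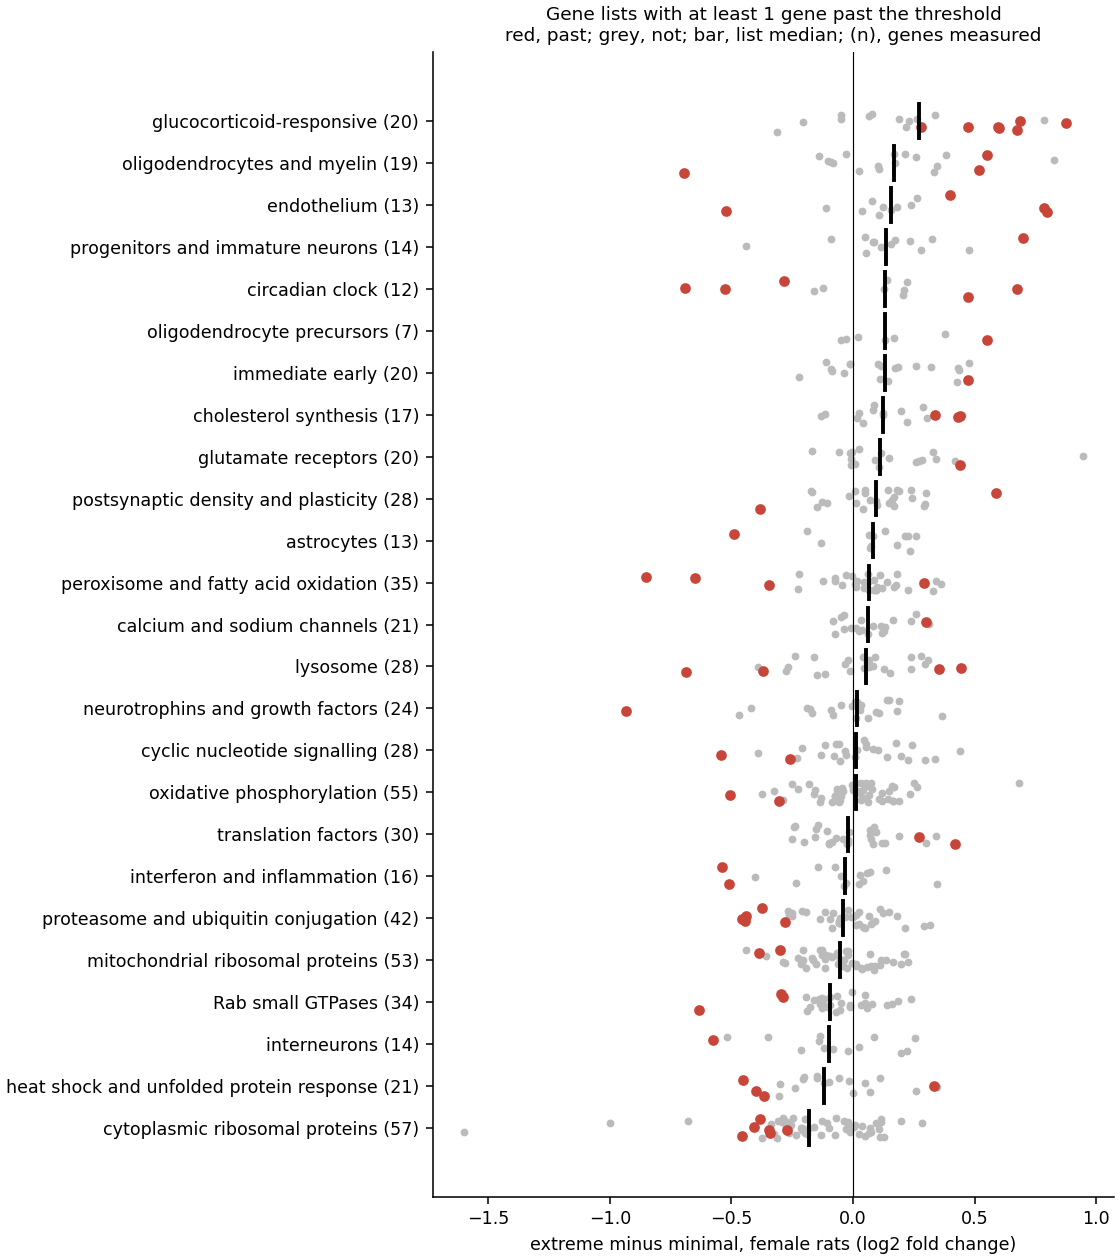
Log2 fold change of extreme minus minimal females for each member of the 25 gene lists with at least 1 gene past the threshold, lists ordered by median (black bar); red points passed, grey points did not. The 7 red points of the glucocorticoid list are all above 0 and the 6 of the cytoplasmic ribosomal proteins all below, while clock, endothelial and oligodendrocyte lists hold red points on both sides.

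In 17 of the 42 gene lists 0 genes passed with limma (30 of their 217 genes had an unadjusted p under 0.05). They include the marker lists of pyramidal cells (median 0.06 over 13 genes), dentate granule cells (0.07 over 7), striatum (−0.05 over 9), blood (0.16 over 3), neocortex (−0.34 over 2), meninges (0.12 over 9), choroid plexus (−0.13 over 11) and pituitary (−0.26 over 2). The 5 thalamus and habenula markers all had a higher mean (median 0.47) and 0 passed. The levels of the thalamus and neocortex markers in extreme responders 4 and 5 are given above. Their part in other results was not tested beyond leaving out these rats. Receptors of GABA (median 0.03 over 9 genes), of monoamines, adenosine and cannabinoids (−0.05 over 18), neuropeptides and their receptors (0.03 over 31), potassium channels (0.03 over 33) and synaptic vesicle release (0.03 over 37) gave 0 calls as well. With the block *Trhr* (−0.43), *Kcnab1* (−0.59), *Kcnd3* (0.57) and *Rims1* (−0.78) of these lists passed. *Npy*, a peptide of interneurons, differed by 0.25 ± 0.27 and the stress peptide *Crh* by 0.16 ± 0.11, both with overlapping groups.

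The controls were compared with each exposed group to place the 226 probes. For 198 of them the control mean lay between the means of the minimal and the extreme responders. For 23 it lay beyond the minimal mean and for 5 beyond the extreme mean. Over all 11888 probes these counts were 4773, 3545 and 3570. The 226 were chosen for a wide gap between the exposed groups, which favours a control mean in between, so nothing is read from the 198. Extreme responders differed from controls at 119 probes (1%) and minimal responders at 0 (1314 unadjusted, limma). Both counts come from the fit without the block. Female controls 3, 4 and 5 were in set A, as were minimal responders 1, 3 and 5, but no extreme responder was. The comparison of extreme responders with controls therefore carries the set imbalance, and its part in these counts was not tested. The 2 comparisons share the controls, and each also shares rats with the extreme against minimal comparison. Of the 25 named genes with the largest rises 13 also passed against controls, and 4 of the 25 with the largest falls, again without the block. *Per1* had means of 9.00 ± 0.08 (SD) in controls, 9.19 ± 0.22 in minimal and 9.67 ± 0.06 in extreme responders (n = 5 each). *Nfil3* had 8.26 ± 0.23, 8.25 ± 0.21 and 8.92 ± 0.12, so controls and minimal responders were alike in mean. *Rab24*, in contrast, stood at 11.31 ± 0.11 in controls, 11.64 ± 0.12 in minimal and 11.01 ± 0.09 in extreme responders, and did not pass against controls in either group (adjusted p = 0.0569 for extreme and 0.12 for minimal). *Pgrmc1* and *Sat1* lay close to the controls in extreme responders (0.07 and −0.01) and below them in minimal responders (−0.43 and −0.51), without passing.

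Exposed males of the same 2 labels gave a separate contrast that shares no rat with the female one. In males 9 probes passed (0.0757%), 4 higher (0.0336%) and 5 lower (0.0421%), a count that ran from 0 to 101 when 1 exposed rat was left out, the highest without male minimal responder 3. Of these, *Marcksl1* (0.75), the cell cycle factor *Mnat1* (−0.38) and the calcium sensor *Stim1* (−0.34) passed in both sexes, with female values of 0.70, −0.35 and −0.34. With the set as a block none of the 3 passed in males (adjusted p = 0.142, 0.0697 and 0.132), and the male value of *Marcksl1* was 0.48. Of the 226 probes 80.1% had the same sign in males, against 62.4% of all probes. This is a description, since both contrasts carry the same imbalance of set A, which held 3 of 4 male minimal and 0 of 5 male extreme responders. Within set B, with 1 male minimal responder, the shares were 85.4% and 60%. The falls had the same sign in males more often (120 of 139) than the rises (61 of 87), a difference that was not tested. *Necab2* (−0.63 in males) and *Eif4e3* (−0.50) were close in size to the female values without passing in males (adjusted p = 0.104 and 0.102).

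In males the list of glucocorticoid-responsive genes had a median difference of −0.10, with 15 of 20 lower, against 0.27 in females, with 16 of 20 higher. *Tob2*, *Nfil3* and *Gadd45g* were listed with their values known. Without them the male median was −0.10, with 13 of 17 lower, and the female median 0.23, with 13 of 17 higher. *Sgk1* had means of 12.00 ± 0.23 (SD, n = 4) in male minimal and 11.68 ± 0.20 (n = 5) in male extreme responders, a difference of −0.32. *Nfil3* (−0.19), *Per1* (−0.14), *Errfi1* (−0.15) and *Ddit4* (−0.19) had lower means in male extreme responders, and *Per2* a higher one (0.25). None of these passed in males. The test of the sex difference itself gave 0 probes with limma without the block (932 unadjusted, smallest adjusted p = 0.0682), and 4 with the set as a block (0.0336%), 1 positive (0.00841%) and 3 negative (0.0252%). These were *Errfi1* (male minus female −0.72 ± 0.14), *St3gal4* (0.70 ± 0.13), a probe without a symbol and *Tmem252*, each at an adjusted p of 0.0448. For *Tmem252* both male means (6.91 and 6.89) and the female minimal mean lay below the floor, so the size of its sex difference was not measured. Its probe was kept through the extreme females, so nothing is read from its pass either. For *Sgk1* the blocked difference was −1.19 ± 0.28 (0.108) and for *Nfil3* −0.83 ± 0.17 (0.0532), and neither passed.

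**Figure D5:**
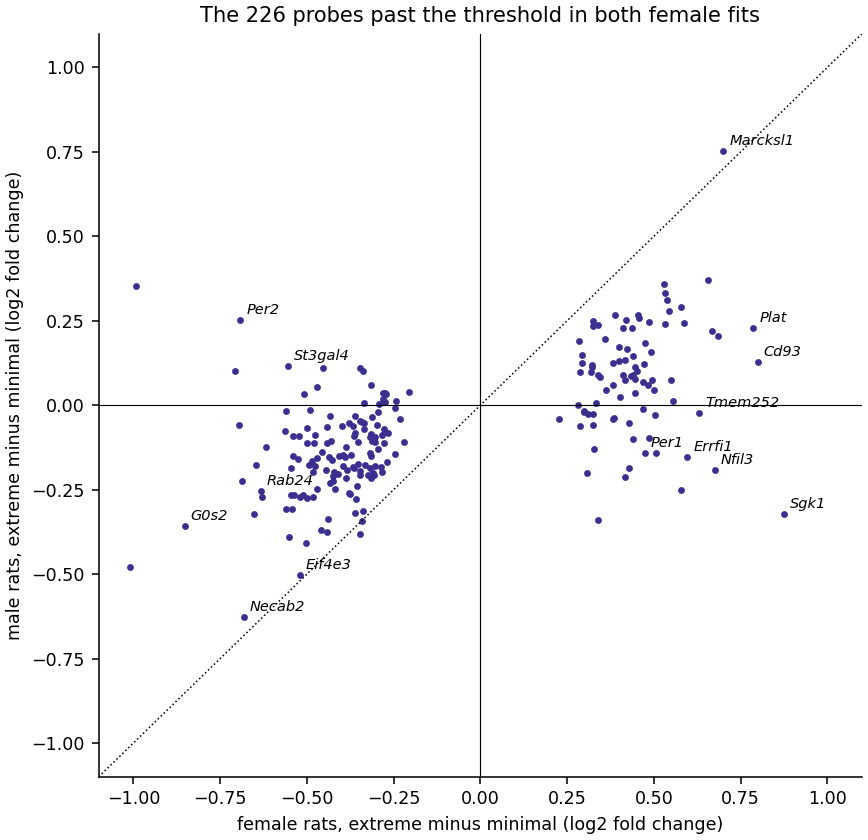
Log2 fold change of extreme minus minimal responders in females (horizontal axis) and males (vertical axis) for the 226 probes past the threshold in both female fits, with some genes named; the dotted line marks equal values. The 226 were chosen for large female differences, so their smaller spread in males is not a result. *Marcksl1*, *Necab2* and *Eif4e3* lie close to the dotted line, and *Sgk1*, *Nfil3*, *Errfi1* and *Per1* lie below 0 in males.

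Smaller fits were also made. Of the 50 genes with the largest changes, 42 passed in all 10 fits that left out 1 exposed female, 40 passed without the 4 choroid plexus arrays, and 37 without extreme responders 4 and 5. In the last case 13 calls ended. The difference was smaller for *Olig1* (0.45), *Apold1* (0.36), *Klf2* (0.33), *Zfp36* (0.33), *Per2* (−0.53) and *Eef1a1* (−0.93). It was as large or nearly so for *Pgrmc1* (0.51), *Tm9sf4* (0.55), *Nptn* (0.53), *Lpcat3* (0.50), *Necab2* (−0.72), *Pde4a* (−0.54) and *Eif4e3* (−0.52), whose calls also ended. Why the 13 calls ended was not tested. Without the choroid plexus arrays 10 calls ended, with differences of 0.51 for *Sat1*, 0.49 for *Pgrmc1*, 0.45 for *Tm9sf4*, 0.42 for *Apold1*, 0.49 for *Nptn* and 0.37 for *Klf2*. The other 4 were *Eef1a1* (−0.88), *Per2* (−0.62), *Hddc3* (−0.49) and *Eif4e3* (−0.49). The count over all probes was 222 without minimal responder 5, 279 without minimal responder 3, 227 without extreme responder 1, 262 without extreme responder 2 and 299 without extreme responder 4. At the threshold *Vps45*, of vesicle fusion, was just inside (−0.35, adjusted p = 0.0499), and the next probe, which has no symbol, just outside (−0.27, 0.0501).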

How the data were processed

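RNA was taken from dissected hippocampus and copied into biotin-labelled cRNA, per the labels' protocols. The deposited values are log2 intensities, read as log2 from their range (6.31 to 15) since no source used here names the base. Sorted, the columns differ by at most 0.00119, so they were quantile normalised before deposit. The software and background correction are not stated in those sources. The 60 columns of a second deposited table match no label and were not used, and 1 male minimal array holds no values.

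A probe was kept when above 7.03 (background mode of 6.7 plus 3 SD of 0.109) on at least 5 arrays, which left 11888 of 22523 probes. Of these 8545 carried 1 symbol from the platform annotation and 3343 none. All 29 arrays in 6 groups were fitted together with limma 3.58.1 in R 4.3.3 (lmFit and eBayes, 23 residual degrees of freedom), and p-values were adjusted by Benjamini-Hochberg, threshold 0.05. The p-values measure the spread between rats, and the number of arrays limits precision. The fit was tested on simulated data. Sets A and B came from the 8 of 10 bimodal probes (a gap of 0.8 or more, at least 8 arrays on each side) that divide the arrays alike. The choroid plexus division used the same gap with at least 4 arrays on each side.

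The genes named were the 25 largest rises and 25 largest falls that carry a symbol and passed with and without the set block, 8 and 8 that passed only without it, all list members that passed or the 2 smallest p where none did, *Nr3c1*, *Nr3c2*, *Fkbp5*, *Crh*, *Bdnf*, *Npy*, *Arc* and *Fos*, and 6 with the smallest p for a sex difference. Other list members, genes passing only with the block, *Rpl37l1*, *Rpl7*, *Rpl23*, *Sostdc1*, *Ttr*, *Mnat1*, *Stim1* and *Vps45* were named after their values were seen. In a list each gene entered with 1 probe. The comparison, the members and the 42 lists were chosen with earlier results of these data known. Alternatives were the set as a block, set B alone, other filters, cyclic loess, a variance trend, array weights, females alone, replicate number as a block, leaving out each exposed rat, and the choroid plexus and thalamus arrays left out. Promoters came from RefSeq, GRCr8. Figures were drawn with matplotlib 3.10.9 in Python 3.11.15.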

Additional observations from a re-analysis of the deposited data

Results flagged for a closer look

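A lone rat was looked for in 302 groups of 5 (each named gene in minimal and in extreme females), by whether the highest or lowest rat stood apart from the other 4. This gave 17 flags, where 15.1 are expected at 1 in 20 by chance. Minimal responder 3 was high in the choroid plexus genes *Folr1* (9.26, the others at most 7.22) and *Cab39l* (10.23), and in *Unc119* (9.29). Extreme responder 5 was high in *Folr1* (8.47, the others at most 7.07). Extreme responder 2 was high in prolactin, *Prl* (10.87, the others at most 7.24), a pituitary hormone that was also at 11.19 and 10.02 in minimal responders 3 and 5. Minimal responder 5 was high in *Adgrb2* (11.12) and low in *Olig1* (11.83) and *Retreg3* (9.98). For *Adgrb2* this put it among the extreme responders, and for *Retreg3* just above their highest value (9.95). Minimal responder 1 was low in *Sema5a* (6.87) and high in *Ndufa8* (12.03), and minimal responder 4 was high in *Ptov1* (9.37). Extreme responder 3 was low in *Bcas1* (11.92) and high in *Mcoln1* (8.40) and *Rab4b* (7.14). Extreme responder 1 was high in *Rpsa* (13.78) and *Syt7* (7.60), and extreme responder 4 was low in *Arc* (9.36).

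The difference between the sexes in extreme minus minimal, fitted with the set as a block, passed for *St3gal4* (0.70, male minus female), *Errfi1* (−0.72), *Tmem252* (−0.64) and the unnamed probe (−0.82). The value of *Tmem252* is no measured size, since among the exposed groups only the extreme females had a mean above the background floor. Nothing is read from its pass. Without the block none of the 4 passed (adjusted p from 0.0682 to 0.141). *St3gal4* had means of 9.48 and 9.60 in male minimal and extreme responders and of 9.59 and 9.04 in the females.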

How the results depend on the processing

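The count of 450 probes in females became 412 with the replicate number as a block, of which 381 were shared, 0 within set B, 697 with array quality weights, 186 without the 4 choroid plexus arrays and 165 without the 2 female extreme arrays high in thalamus markers, and ran from 222 to 435 when 1 exposed female was left out. The last 2 settings and a block for choroid plexus were chosen after the data were seen. Same-numbered minimal and extreme rats did not deviate together (correlations −0.11, 0.17, −0.40, 0.12 and −0.06), so the numbers do not pair the samples. Of the 109 named genes that passed, 74 passed with the set block, 0 within set B, 61 without the choroid plexus arrays, 62 without the thalamus arrays, and 72 to 97 when 1 exposed female was left out. The male count of 9 became 4 with the set block, none of them among the 9, 24 with array weights, and 0 within set B, with a variance trend, with the replicate block, without the choroid plexus arrays or without the thalamus arrays, and ran from 0 to 101 over the leave-outs. The sex difference, 0 in the main fit, became 4 with the set block, 2 with a variance trend, 3 with array weights, 1 without the thalamus arrays, and 0 to 4 over the leave-outs. The other settings run on these counts stayed within 1.5 times. The sign turned for *Npy* with the set block (−0.23) and within set B (−0.16), and for *Bdnf* with the set block (−0.0092). Within set B it turned for *Crhbp* (0.031), *Gabrb1* (0.057), *Pdyn* (−0.16), *Folr1* (0.35) and *Prl* (0.93). Without the choroid plexus arrays *Prl* was 0.22, and without the thalamus arrays *Col1a2* was −0.27 and *Hbb* −0.083. With 1 rat left out *Prl* ran from −1.40 (without extreme responder 2) to 0.056 (without minimal responder 3), *Folr1* from −0.51 (without extreme responder 5) to 0.27 (without minimal responder 3), and *Pomc* was −0.21 without extreme responder 2. None of these genes passed in the main fit, and the cause was not tested. *Tmem252* was below the floor in all 5 minimal responders and *Arsa* in 2, so their fold changes may understate the difference.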
